A study of Mus musculus with 12 samples.

Results

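The 10 claudin genes Cldn1, Cldn2, Cldn3, Cldn4, Cldn7, Cldn8, Cldn10, Cldn14, Cldn16 and Cldn19 were picked by symbol as the claudins known from segments of the nephron, out of 19036 genes in the deposited table. Each had 1 row, and 9 of the 10 entered the test, which required at least 1 FPKM in at least 4 libraries. FPKM, fragments per kilobase of transcript scaled to library depth, take transcript length into account, so that levels of different genes can be set beside each other. Cldn14 stayed under 1 FPKM in every library and is given by its levels and read counts.

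Whole kidney RNA came from C57BL/6 mice in 3 groups of 4 libraries, labelled as biological replicates. The combination group (cisplatin + 84-B10) received 84-B10, a compound given by its code name, at 15 mg/kg for 48 h before cisplatin and daily afterwards, the cisplatin group received 25 mg/kg cisplatin by intraperitoneal injection, as did the combination group, and the vehicle group received saline. Cisplatin is a platinum drug that injures the renal tubule, and kidneys were taken 72 h after it. One label text says that the cisplatin group was pretreated with 84-B10 too, while the series text gives the pretreatment to the combination group alone, and libraries were placed by their own titles. Mice on 84-B10 alone were not analysed here, and the sources used here give no age.

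Claudins are membrane proteins of the tight junction, the seal between neighbouring epithelial cells. Some form pores that let chosen ions or water pass between cells, others close the seal, and each nephron segment carries its own mixture. Claudin-2 is a cation and water pore of the proximal tubule. Claudin-10 exists as an anion pore of the proximal tubule and a cation pore of the thick ascending limb, which are made from different first exons. Claudin-16 and claudin-19 work together in reabsorption of magnesium and calcium in the thick ascending limb, and claudin-14 restrains that route. Claudins 3, 4, 7 and 8 belong to the distal segments and collecting duct, where claudin-4 and claudin-8 are tied to chloride passage, and claudin-1 marks the parietal cells of Bowman's capsule.

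Pairs of these genes lie side by side in the genome: Cldn3 next to Cldn4 on chromosome 5, and Cldn1 next to Cldn16 on chromosome 16, with no protein-coding gene between them in the RefSeq order of GRCm38.p6. After cisplatin both genes of the first pair rose, and of the second pair Cldn1 rose while Cldn16 did not pass. Their promoter windows are shown for that reason, as RefSeq gives them for GRCm38.p6, from 250 bases before to 50 bases after the gene start and 5′ to 3′ on the gene's strand. Capitals mark matches, on either strand, to the AP-1 motif TGANTCA, the GC box GGGCGG, the TATA box TATAAA, the Grainyhead-like motif AACCNGTT and the STAT motif TTCNNNGAA.
Cldn4 (chr5:134946885-134947184, minus strand): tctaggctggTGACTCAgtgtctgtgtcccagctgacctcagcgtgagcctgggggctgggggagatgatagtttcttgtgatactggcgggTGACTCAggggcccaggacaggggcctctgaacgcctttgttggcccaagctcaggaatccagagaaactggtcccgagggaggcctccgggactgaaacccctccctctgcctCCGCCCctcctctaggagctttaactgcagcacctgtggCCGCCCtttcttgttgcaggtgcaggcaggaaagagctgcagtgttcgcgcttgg
Cldn3 (chr5:134985964-134986263, plus strand): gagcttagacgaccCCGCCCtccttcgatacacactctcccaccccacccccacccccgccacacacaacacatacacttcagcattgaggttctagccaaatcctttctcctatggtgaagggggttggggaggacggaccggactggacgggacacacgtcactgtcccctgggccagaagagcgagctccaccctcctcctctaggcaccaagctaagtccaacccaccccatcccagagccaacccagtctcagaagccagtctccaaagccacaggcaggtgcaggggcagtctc
Cldn1 (chr16:26371790-26372089, minus strand): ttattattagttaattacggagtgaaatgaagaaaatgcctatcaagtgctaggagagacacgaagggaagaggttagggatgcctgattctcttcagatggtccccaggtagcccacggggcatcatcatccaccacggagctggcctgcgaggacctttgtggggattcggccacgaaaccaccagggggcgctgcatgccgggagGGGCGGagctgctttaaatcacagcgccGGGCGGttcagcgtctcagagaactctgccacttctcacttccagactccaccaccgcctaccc
Cldn16 (chr16:26462885-26463184, plus strand): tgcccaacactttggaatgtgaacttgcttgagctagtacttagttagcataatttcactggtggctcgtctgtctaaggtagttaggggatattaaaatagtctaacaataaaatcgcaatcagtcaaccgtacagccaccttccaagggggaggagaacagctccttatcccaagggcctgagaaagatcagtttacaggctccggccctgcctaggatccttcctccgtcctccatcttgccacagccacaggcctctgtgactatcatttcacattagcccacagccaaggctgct
The Cldn4 window held 2 AP-1 matches, both TGACTCA, and 2 GC boxes. The Cldn3 window held 1 GC box, the Cldn1 window 2 GC boxes, and the Cldn16 window no match to any of the 5 motifs. Of 32851 RefSeq promoter windows of the same length, 7.81% held the AP-1 motif and 35.7% the GC box, against 13.6% for TATAAA, 8.30% for the STAT motif and 2.09% for the Grainyhead-like motif. Windows were found for 9 of the 10 genes, and Cldn8 had none. Among the 14 windows of these 9 genes AP-1 letters stood in 1, GC boxes in 7, TATAAA in 1, the STAT motif in 2 and the Grainyhead-like motif in 0. These windows are not all separate. The 2 Cldn19 windows, both counted for GC boxes, share most of their bases, and 2 of the 3 Cldn14 windows overlap in part. A match describes letters in a window and is not a measured binding site.

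In kidneys given cisplatin 4 of the 9 tested claudins rose (Cldn1, Cldn3, Cldn4 and Cldn7) and 3 fell (Cldn2, Cldn8 and Cldn10), while Cldn16 and Cldn19 did not pass over all 12 libraries. In the 10 libraries with a usable count column, which leave out cisplatin libraries 1 and 2, Cldn19 also rose. The threshold was an adjusted p of 0.05 (limma on log2(FPKM + 1), Benjamini-Hochberg over all 12428 genes tested), and log2 fold changes below are on that scale, which understates the change of low genes. In the same comparison 78.1% of all tested genes passed, 56.3% upward and 21.8% downward, so a call alone does not set a claudin apart, and 16.9% passed with a change of at least 2-fold on that scale, as did 5 of the 9 claudins. The groups did not overlap for 7 of the 9, against 71.6% of all tested genes. In the combination over cisplatin 1 of 9 passed, Cldn19, which fell, where 2.21% of all genes passed (0.435% upward and 1.78% downward). The groups did not overlap for that 1 gene of 9, against 8.24% of all genes. On the log2(FPKM + 1) scale 0 of 9 passed with at least 2-fold there, against 0.555% of all genes, while the ratio of mean FPKM for Cldn19 was 0.496. In the combination over vehicle 8 of 9 passed, with the same 4 rises and with falls of Cldn2, Cldn8, Cldn10 and Cldn19. Over all genes 79.2% passed there, 56.6% upward and 22.6% downward. Cldn16 did not pass (log2 fold change -0.32, limma adjusted p = 0.0883). Groups did not overlap for 8 of 9 in that comparison, against 74.8% of all genes, and 5 of 9 passed with at least 2-fold, against 18.5%. The 2 comparisons against vehicle share the same 4 vehicle libraries. In whole tissue, fewer cells of a segment and less RNA per cell cannot be told apart.

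**Figure D1:**
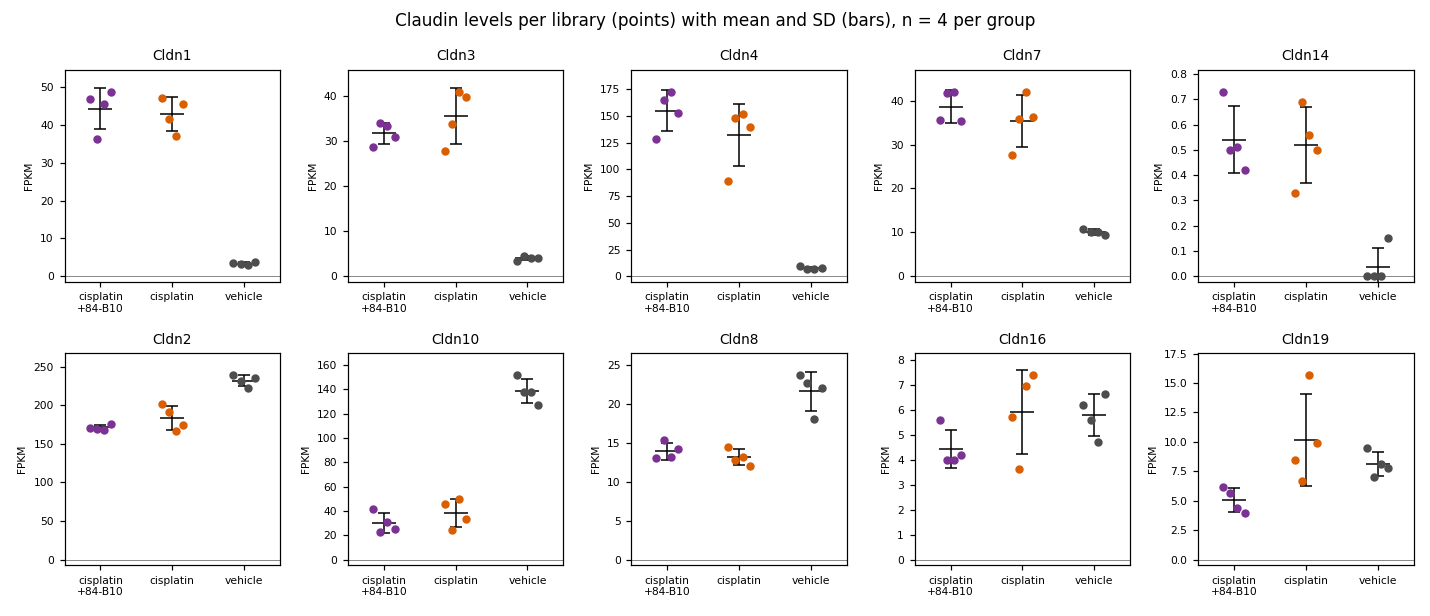
FPKM of each of the 10 claudins in every library (points) of the combination (left), cisplatin and vehicle (right) groups, with the group mean and SD (bars, n = 4) and a separate linear axis per gene. Cldn1, Cldn3, Cldn4, Cldn7 and Cldn14 sit higher in all 8 libraries given cisplatin than in any vehicle library, and Cldn2, Cldn8 and Cldn10 sit lower.

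Both claudins of the proximal tubule pair fell after cisplatin, Cldn2 by less than Cldn10 in each fit run. Cldn2 (NCBI gene 12738) stood at 171, 169.8, 168 and 176 FPKM in combination libraries 1 to 4, at 201, 191, 166 and 175 FPKM in cisplatin libraries and at 239, 231, 222 and 236 FPKM in vehicle libraries. It was lower in all 8 libraries given cisplatin than in any vehicle library, and the combination and cisplatin libraries overlapped. Its log2 fold change was -0.34 after cisplatin (SE 0.06, adjusted p = 0.000142) and -0.44 in the combination against vehicle (adjusted p = 1.42e-05). The size of the Cldn2 fall depended on the scaling, at -0.63 with median-of-ratios scaling, -0.22 with quantile normalization, -0.72 with edgeR and -0.73 with DESeq2 after cisplatin. Cldn10 (NCBI gene 58187) stood at 41.9, 23.0, 30.8 and 25.1 FPKM in combination libraries, at 45.85, 24.6, 50.1 and 33.4 FPKM in cisplatin libraries and at 152, 138, 138 and 127 FPKM in vehicle libraries. No library given cisplatin reached any vehicle library, and the spread among the cisplatin libraries was wide, with libraries 1 and 3 high and library 2 low. The log2 fold change of Cldn10 was -1.87 after cisplatin (SE 0.20, adjusted p = 1.66e-06), and -0.33 for the combination over cisplatin (SE 0.20, adjusted p = 0.489), which did not pass. RefSeq lists 2 promoter windows for Cldn10, and the values per gene do not separate its proximal tubule form from its ascending limb form. All 10 proximal tubule markers fell after cisplatin, where 21.8% of all genes fell. Their summed FPKM ran from 6279 to 8007 in the combination, 8763 to 13791 in cisplatin and 67115 to 75054 in vehicle libraries. Most of that sum was 1 gene, Kap, at means of 5776, 10352 and 65088 FPKM in these groups. In the combination over cisplatin 2 of the 10 markers fell, Kap and Aqp1, where 1.78% of all genes fell. The other 8 did not pass. The part of these markers in the claudin values was not tested.

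The distal claudins Cldn4, Cldn3 and Cldn7 rose and Cldn8 fell. Cldn4 (NCBI gene 12740) stood at 129, 165, 173 and 153 FPKM in combination libraries, at 89.5, 148, 152 and 139 FPKM in cisplatin libraries and at 9.39, 7.14, 6.53 and 7.59 FPKM in vehicle libraries. The lowest library given cisplatin, cisplatin library 1, was still far above every vehicle library. The mean was 17.2 times the vehicle mean after cisplatin (log2 fold change 3.92, SE 0.15, adjusted p = 7.14e-11) and 20.2 times in the combination (4.17, adjusted p = 3.47e-11). Cldn3 (NCBI gene 12739), a sealing claudin, stood at 28.7, 34.0, 33.3 and 31.0 FPKM in combination libraries, at 27.7, 33.85, 41.0 and 39.9 FPKM in cisplatin libraries and at 3.50, 4.57, 4.10 and 4.04 FPKM in vehicle libraries. Its log2 fold change was 2.85 after cisplatin (SE 0.11, adjusted p = 5.02e-11). Cldn7 (NCBI gene 53624) stood at 35.5, 41.7, 42.0 and 35.3 FPKM in combination libraries, at 27.55, 35.9, 42.0 and 36.3 FPKM in cisplatin libraries and at 10.8, 10.0, 10.2 and 9.35 FPKM in vehicle libraries, a log2 fold change of 1.70 after cisplatin (SE 0.11, adjusted p = 5.91e-09). In both genes the combination and cisplatin libraries overlapped and cisplatin library 1 was the lowest of its group, as it was for Cldn4.

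Cldn8 (NCBI gene 54420), which sits with claudin-4 in the collecting duct, went the other way. It stood at 13.1, 15.4, 13.1 and 14.2 FPKM in combination libraries, at 14.5, 12.9, 13.2 and 12.05 FPKM in cisplatin libraries and at 23.7, 22.7, 18.05 and 22.05 FPKM in vehicle libraries. Every library given cisplatin was below every vehicle library (log2 fold change -0.67 after cisplatin, SE 0.08, adjusted p = 5.88e-06; -0.59 in the combination against vehicle). With edgeR on 10 libraries these falls were -1.04 and -0.92. The summed FPKM of 10 collecting duct markers ran from 531 to 766 in the combination, from 445 to 542 in cisplatin and from 359 to 409 in vehicle libraries. A large share of that sum was the water channel gene Aqp2, at 260.1, 444, 236 and 336 FPKM in combination libraries, 190.3, 276, 234 and 235 FPKM in cisplatin libraries and 75.6, 109, 140.1 and 109 FPKM in vehicle libraries. Of the 9 collecting duct markers tested, 5 rose and 4 fell after cisplatin, where 56.3% of all genes rose and 21.8% fell. The count of rises was thus near the share of all genes. The 8 markers of urothelium and squamous epithelium, other linings that carry claudins 4 and 7, summed to 3.26 to 5.93 FPKM in combination, 3.21 to 4.74 FPKM in cisplatin and 0.42 to 1.02 FPKM in vehicle libraries. Of these 8 markers 2 were tested, Upk1a and Krt5, and both rose, where 56.3% of all genes rose. Both met the filter of the test only through libraries given cisplatin, so the filter favoured a rise. The uroplakin gene Upk1a averaged 1.10 ± 0.177, 1.09 ± 0.177 and 0.473 ± 0.162 FPKM in combination, cisplatin and vehicle kidneys (SD, n = 4 each; log2 fold change after cisplatin 0.51, SE 0.10, adjusted p = 0.000268). Upk2 and Upk3a were at or near 0 in all groups, and Krt5, a keratin gene, at 2.06 to 4.26 FPKM in combination and 1.72 to 2.58 FPKM in cisplatin libraries, was at 0 in every vehicle library. The part of these cells in the rise of Cldn4 was not tested.

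Cldn1 (NCBI gene 12737) rose almost as strongly as Cldn4. It stood at 46.9, 36.3, 45.5 and 48.8 FPKM in combination libraries, at 47.15, 41.5, 37.2 and 45.5 FPKM in cisplatin libraries and at 3.48, 3.26, 2.92 and 3.68 FPKM in vehicle libraries. The combination and cisplatin libraries overlapped, and all 8 stood far above the vehicle libraries. Its log2 fold change was 3.34 after cisplatin (SE 0.10, adjusted p = 3.12e-12) and 3.38 in the combination against vehicle (adjusted p = 2.33e-12). The 8 podocyte markers, which stand for the glomerulus that Bowman's capsule surrounds, summed to 76.0 to 120 FPKM in combination, 66.0 to 104 FPKM in cisplatin and 95.5 to 112 FPKM in vehicle libraries. Of these 8, 3 fell after cisplatin and none rose, where 21.8% and 56.3% of all genes did.

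**Figure D2:**
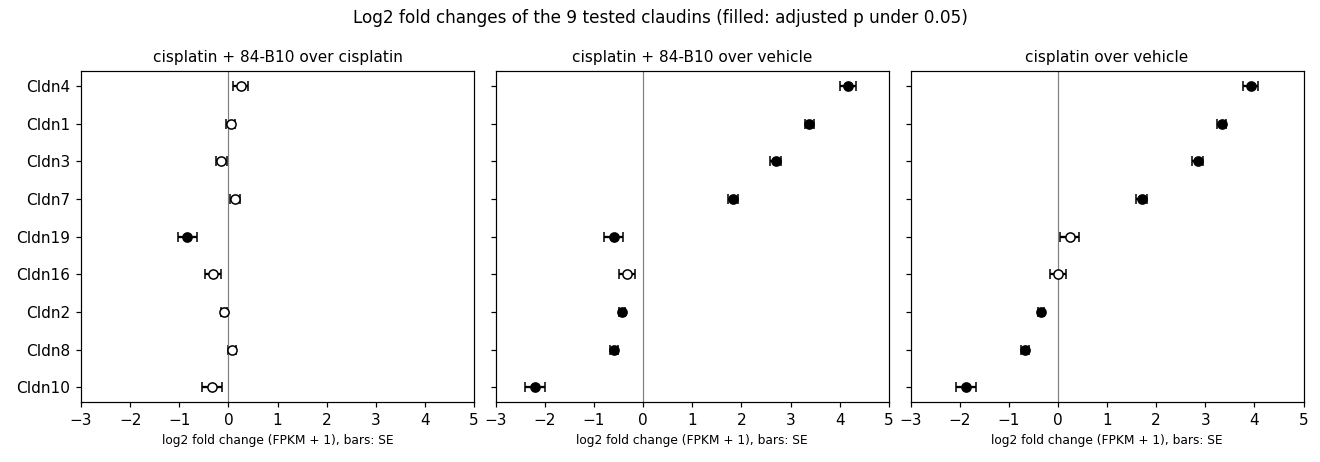
Log2 fold changes of the 9 tested claudins on the log2(FPKM + 1) scale for the combination over cisplatin (left), the combination over vehicle (middle) and cisplatin over vehicle (right), with SE bars, filled where the adjusted p was under 0.05. Cldn4 (3.92) and Cldn1 (3.34) lead the rises after cisplatin, Cldn10 (-1.87) the falls, and Cldn19 (-0.84) is the only filled point for the combination over cisplatin.

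In the thick ascending limb, the magnesium and calcium claudins did not pass after cisplatin over all 12 libraries, and Cldn19 fell in the combination over cisplatin. Cldn19 (NCBI gene 242653) stood at 6.20, 5.67, 4.37 and 3.97 FPKM in combination libraries, at 8.42, 6.67, 15.7 and 9.94 FPKM in cisplatin libraries and at 9.48, 6.99, 8.15 and 7.79 FPKM in vehicle libraries. All 4 combination libraries lay below all cisplatin and all vehicle libraries, and cisplatin library 3 was far above the other 3. For the combination over cisplatin the log2 fold change was -0.84 (SE 0.19, adjusted p = 0.0418), and for the combination over vehicle -0.60 (SE 0.19, adjusted p = 0.0120). The call between the combination and cisplatin was lost without 10 of the 12 libraries in turn, with adjusted p between 0.0107 and 0.121, and without cisplatin library 3 the log2 fold change was -0.63 (adjusted p = 0.0543). Its value with the replicate number as a block was adjusted p = 0.0481.

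Cldn16 (NCBI gene 114141) stood at 5.58, 4.01, 3.98 and 4.18 FPKM in combination libraries, at 5.70, 3.64, 6.97 and 7.40 FPKM in cisplatin libraries and at 6.21, 5.6, 4.70 and 6.63 FPKM in vehicle libraries. All 3 groups overlapped. Cisplatin over vehicle gave log2 fold changes of 0.00 for Cldn16 (SE 0.16, adjusted p = 0.991) and 0.24 for Cldn19 (SE 0.19, adjusted p = 0.266), which became -0.25 and -0.02 with median-of-ratios scaling, where the median of all genes moved down by 0.250. Without cisplatin libraries 1 and 2, Cldn19 passed upward after cisplatin (edgeR 0.41, adjusted p = 0.0216; DESeq2 0.40, adjusted p = 0.0224; limma 0.58, adjusted p = 0.0129), and Cldn16 did not (adjusted p from 0.0725 to 0.882). In the same 10 libraries the fall of Cldn19 in the combination over cisplatin was -1.39 with edgeR (adjusted p = 0.00015). The combination over cisplatin gave -0.32 for Cldn16 (SE 0.16, adjusted p = 0.387), which did not pass. In those 10 libraries Cldn16 passed as well (edgeR quasi-likelihood test, -0.72, adjusted p = 0.0439; limma with FPKM from those 10, -0.60, adjusted p = 0.0457). Cisplatin library 2 held the lowest Cldn16 and Cldn19 of its group.

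The transport genes of the same segment give the setting of these values. Slc12a1, the sodium-potassium-chloride transporter, stood at 5.33, 3.39, 4.84 and 5.42 FPKM in combination libraries, at 31.85, 12.6, 60.8 and 28.1 FPKM in cisplatin libraries and at 96.3, 88.9, 96.45 and 98.95 FPKM in vehicle libraries. Its cisplatin libraries had the same highest and lowest library as Cldn19, library 3 and library 2. Umod, which encodes uromodulin, stood at 134, 72.4, 73.5 and 86.4 FPKM in combination libraries, at 315, 142, 312 and 221 FPKM in cisplatin libraries and at 803, 783, 782 and 747 FPKM in vehicle libraries. Both fell after cisplatin (log2 fold changes of -1.68 and -1.72) and both fell in the combination over cisplatin (-2.40, adjusted p = 0.000906, and -1.40, adjusted p = 0.00476). By contrast, Cldn16 and Cldn19 had means after cisplatin of 5.93 ± 1.69 and 10.2 ± 3.90 FPKM, against 5.79 ± 0.838 and 8.10 ± 1.04 FPKM in vehicle kidneys (SD, n = 4 each). The difference between the claudins and the transport genes was not tested. Of 9 tested markers of the segment, 7 fell and 1 rose after cisplatin, where 21.8% and 56.3% of all genes did. In the combination over cisplatin 4 of them fell, where 1.78% of all genes fell.

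**Figure D3:**
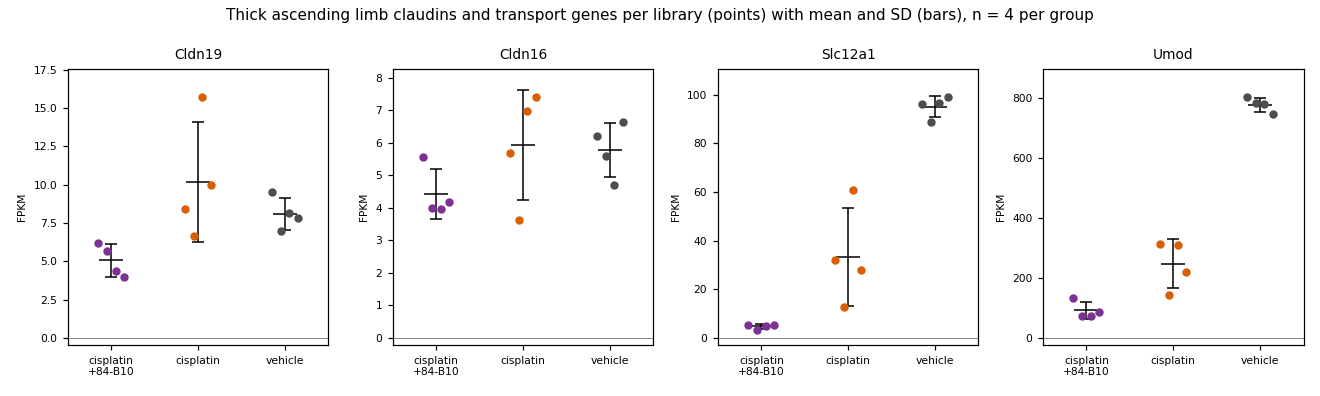
FPKM of Cldn19, Cldn16, Slc12a1 and Umod in every library (points) of the combination (left), cisplatin and vehicle (right) groups, with mean and SD (bars, n = 4) on linear axes. Slc12a1 and Umod are lowest in the combination, higher in cisplatin and highest in vehicle libraries without overlap, while both claudins overlap between cisplatin and vehicle, and the 4 combination libraries of Cldn19 lie between 3.97 and 6.20 FPKM.

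Cldn14 (NCBI gene 56173), the antagonist of the claudin-16 route, was near the limit of detection in vehicle kidneys. It stood at 0.73, 0.50, 0.51 and 0.42 FPKM in combination libraries, at 0.33, 0.69, 0.56 and 0.50 FPKM in cisplatin libraries and at 0, 0, 0 and 0.15 FPKM in vehicle libraries. Every library given cisplatin was above every vehicle library. Summed estimated counts were 47 in 4 combination libraries, 23 in cisplatin libraries 3 and 4 and 3 in 4 vehicle libraries. Per M of total counts (M, 1e+06) that was 0.657 (95% exact Poisson interval 0.483 to 0.874), 0.641 (0.406 to 0.962) and 0.0466 (0.00961 to 0.136) in the combination, cisplatin and vehicle libraries, and these intervals cover counting error only. The ratio to vehicle was 14.1 in the combination (95% interval 4.54 to 70.8) and 13.8 after cisplatin (4.16 to 71.6). Without a filter on low values limma gave adjusted p = 6.63e-05 after cisplatin, and edgeR's quasi-likelihood test on the counts gave adjusted p = 0.00173. Casr, the calcium-sensing receptor gene known to govern Cldn14 in this segment, stood at 1.55 ± 0.201 FPKM in combination, 2.04 ± 0.490 FPKM in cisplatin and 9.04 ± 0.579 FPKM in vehicle kidneys (SD, n = 4 each), and fell after cisplatin (log2 fold change -1.74, SE 0.10, adjusted p = 2.63e-09).

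The make-up of the claudin transcripts changed while their sum moved less. The 10 genes summed to 478 to 514 FPKM in combination, 468 to 525 FPKM in cisplatin and 414 to 458 FPKM in vehicle libraries. Cldn2 made up 34.6% ± 1.46, 37.0% ± 4.84 and 53.8% ± 1.36 of that sum in the combination, cisplatin and vehicle groups (SD, n = 4 each). Cldn10 made up 6.13% ± 1.84, 7.74% ± 2.34 and 32.1% ± 1.52, and Cldn4 made up 31.2% ± 3.07, 26.4% ± 4.90 and 1.77% ± 0.206 in the same 3 groups. In vehicle kidneys the order of levels was Cldn2, Cldn10, Cldn8, Cldn7, Cldn19, Cldn4, Cldn16, Cldn3, Cldn1 and Cldn14, and the ranges of neighbours overlapped from Cldn7 through Cldn16 and between Cldn3 and Cldn1. After cisplatin the order was Cldn2, Cldn4, Cldn1, Cldn10, Cldn3, Cldn7, Cldn8, Cldn19, Cldn16 and Cldn14. There neighbours from Cldn1 through Cldn7 overlapped, as did those from Cldn8 through Cldn16, while Cldn2 and Cldn4 did not. In the combination group Cldn2 and Cldn4 overlapped, at 168 to 176 and 129 to 173 FPKM.

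**Figure D4:**
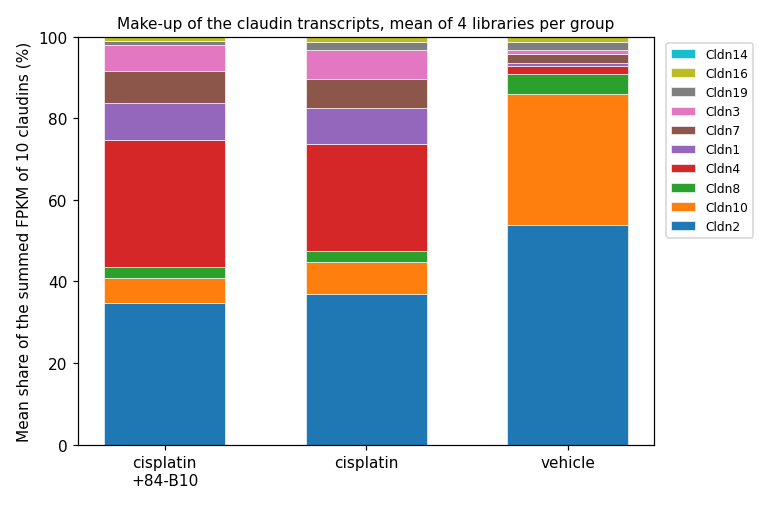
Mean share of each claudin in the summed FPKM of the 10 genes, in percent, for the combination (left), cisplatin and vehicle (right) groups, each the mean of 4 libraries. Cldn2 and Cldn10 make up 53.8% and 32.1% in vehicle, and Cldn4 makes up 31.2% in the combination and 26.4% after cisplatin, against 1.77% in vehicle.

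Ratios of partner claudins within a library do not depend on how libraries are scaled to each other, apart from the pseudocount of 1. The log2 ratio of Cldn4 to Cldn8 averaged 3.21 ± 0.440 in cisplatin and -1.39 ± 0.124 in vehicle kidneys (SD, n = 4 each), a difference of 4.59 (p = 0.0286 in an exact permutation test, two-sided; 0.0762 after adjustment over 8 ratio tests). The log2 ratio of Cldn2 to Cldn10 averaged 2.27 ± 0.501 in cisplatin and 0.74 ± 0.103 in vehicle kidneys, a difference of 1.53 with the same exact p and adjusted p. The ratio of Cldn14 to Cldn16 was among the 8 tests and is not read as a change, since Cldn14 lay under the pseudocount in every library. An exact p of 0.0286 is the smallest that 4 against 4 libraries allow, both ratios were higher in 4 of 4 cisplatin libraries than in any vehicle library, and neither passed the correction. The ratio of Cldn16 to Cldn19 differed by -0.24 after cisplatin (exact permutation p = 0.286, adjusted p = 0.381). For the combination over cisplatin it differed by 0.52 (exact permutation p = 0.0571, adjusted p = 0.114), while Cldn4 to Cldn8 differed by 0.17 (exact permutation p = 0.714, adjusted p = 0.714) and Cldn2 to Cldn10 by 0.23 (exact permutation p = 0.543, adjusted p = 0.62).

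**Figure D5:**
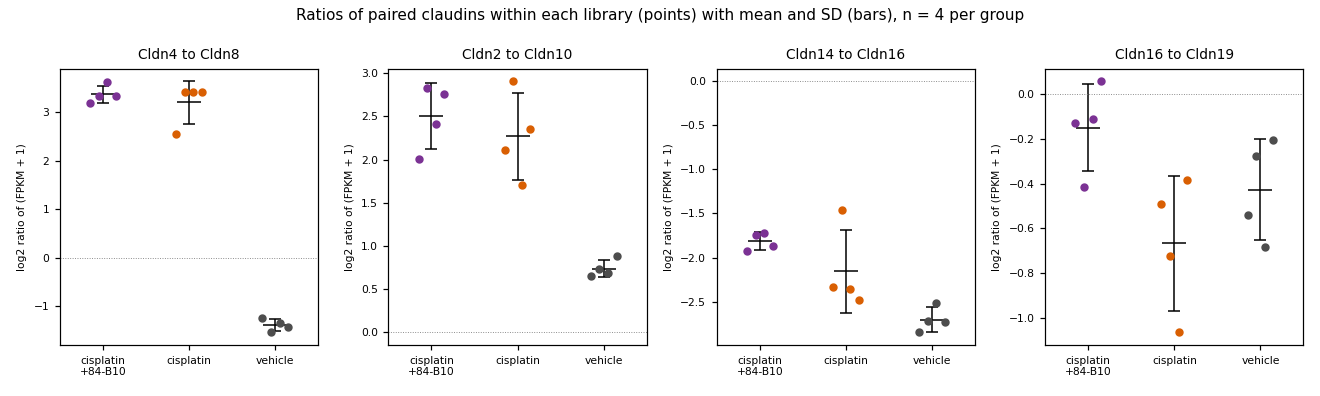
Log2 ratios of (FPKM + 1) between partner claudins in every library (points) of the combination (left), cisplatin and vehicle (right) groups, with mean and SD (bars, n = 4), and a dotted line at equal levels. The Cldn4 to Cldn8 ratio changes side, with means of 3.37 in the combination, 3.21 after cisplatin and -1.39 in vehicle, and the Cldn14 to Cldn16 panel is set largely by the pseudocount.

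Of 13 other claudins in the table, 5 reached a mean of 1 FPKM in any group, and 3 of these rose after cisplatin, where 56.3% of all genes rose. Cldn6 and Cldn23 reached that mean only in the groups given cisplatin, so the filter favoured a rise in both. Cldn6, a claudin typical of embryonic epithelia, averaged 4.16 ± 0.539 FPKM in combination, 3.41 ± 0.714 FPKM in cisplatin and 0.67 ± 0.323 FPKM in vehicle kidneys (SD, n = 4 each; log2 fold change after cisplatin 1.41, SE 0.14, adjusted p = 8.2e-07). Cldn23 stood at 1.51 to 1.68 FPKM in combination and 1.05 to 1.68 FPKM in cisplatin libraries, and at 0.04, 0, 0 and 0 FPKM in vehicle libraries (1.28, adjusted p = 9.63e-09). Cldn15, a cation pore best known from the intestine, averaged 6.65, 6.61 and 3.47 FPKM in combination, cisplatin and vehicle kidneys (0.76, adjusted p = 1.83e-06). Cldn12 (0.06, adjusted p = 0.455) and Cldn5, the claudin of blood vessel endothelium (-0.16, adjusted p = 0.179), did not pass. Median-of-ratios scaling kept 3 rises and made 2 falls of the 5. Between the combination and cisplatin 0 of the 5 passed with limma, edgeR or DESeq2, and 0 had an unadjusted p under 0.05 with limma.

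Other tight junction genes mostly rose with cisplatin. Of 24 tested scaffold and partner genes 17 rose, 5 fell and 2 did not pass, where 56.3% of all genes rose and 21.8% fell, with a median log2 fold change of 0.72, against 0.26 over all genes. With median-of-ratios scaling 16 rose and 7 fell, with a median of 0.46. Lsr, a receptor of junctions where 3 cells meet, stood at 78.6 ± 4.40, 70.8 ± 3.28 and 21.6 ± 0.928 FPKM in combination, cisplatin and vehicle kidneys (SD, n = 4 each; log2 fold change after cisplatin 1.67, SE 0.05, adjusted p = 9.97e-12). Cgn, the gene of the junction adaptor cingulin, rose by 1.80 on the log2 scale. The polarity scaffold gene Mpp5, at 11.3 ± 1.13, 12.4 ± 1.29 and 13.3 ± 0.623 FPKM in the same order of groups, did not pass after cisplatin (-0.10, adjusted p = 0.276). In the combination over cisplatin 0 of the 24 passed with limma, edgeR or DESeq2 (3 had an unadjusted p under 0.05 with limma), and the most abundant, Igsf5, differed by 0.06 (adjusted p = 0.725). In the combination over vehicle 17 rose and 6 fell, while Tjp3 did not pass (0.02, adjusted p = 0.838).

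Of 17 regulators and binding partners of claudins 6 rose and 10 fell after cisplatin, beside 56.3% of all genes upward and 21.8% downward. Their median was -0.33 against 0.26 over all genes. St14, the gene of the surface protease matriptase, stood at 65.0 ± 1.39, 62.7 ± 3.41 and 14.4 ± 0.867 FPKM in combination, cisplatin and vehicle kidneys (SD, n = 4 each; 2.05, SE 0.05, adjusted p = 1.13e-12). Spint1, which encodes an inhibitor of matriptase, rose by 1.07. The transcription factor gene Ovol2 did not pass after cisplatin (0.29, adjusted p = 0.0701). Between the combination and cisplatin 0 of the 17 passed with limma or edgeR and 1 with DESeq2 (2 had an unadjusted p under 0.05 with limma), and the most abundant, Spint2, another protease inhibitor gene, differed by 0.09 (adjusted p = 0.62).

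For the 5 claudins that changed at least 2-fold after cisplatin, the 3 genes with the most similar profiles over the 12 libraries were found among 9110 named genes with a mean of at least 5 FPKM in a group, leaving out provisional symbols. Likeness was the mean absolute difference of log2(FPKM + 1) relative to the vehicle mean. Nearest to Cldn7 was Elf3, an epithelial transcription factor gene, with a mean difference of 0.069, then Plpp5 (0.0800) and Slfn2 (0.0832). Cldn3 lay nearest to Nfkbiz (0.102), Aen (0.111) and Actn1 (0.117), and Cldn1 to Myof (0.114), Eda2r (0.133) and Rap2b (0.134). Cldn10 lay nearest to Ggt1, a brush border enzyme gene (0.140), Pcca (0.145) and Acss2 (0.153). The nearest to Cldn4 were D17H6S56E-5 (0.15), Zfp972 (0.175) and Capg (0.195). These distances describe shared size of change and carry no test.

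Depth, as the total of estimated counts, was 17.47 to 18.17 M for the combination, 17.74 and 18.15 M for cisplatin libraries 3 and 4, and 15.76 to 16.52 M for vehicle. The estimated counts of all 10 claudins were whole numbers in all 10 libraries that have them, within 1e-06. Endothelial markers summed to 76.9 to 87.3, 71.7 to 92.9 and 85.3 to 110.5 FPKM in combination, cisplatin and vehicle libraries. Macrophage markers summed to 168 to 197, 139 to 186 and 39.7 to 45.2 FPKM in that order. The largest after cisplatin was Cd68, at a mean of 64.1 FPKM against 1.96 FPKM in vehicle kidneys. Of 7 tested macrophage markers 6 rose after cisplatin, where 56.3% of all genes rose, and Csf1r did not pass (-0.03, limma adjusted p = 0.792). Adgre1, which was not tested, averaged 0.75 FPKM in cisplatin and 0.74 FPKM in vehicle kidneys. Markers of the distal convoluted and connecting tubule summed to 1599 to 2089, 1258 to 1575 and 1364 to 1956 FPKM in combination, cisplatin and vehicle libraries. Most of that sum was S100g, which did not pass after cisplatin (log2 fold change 0.007, limma adjusted p = 0.966). Of the 8 markers 6 fell and 0 rose, where 21.8% and 56.3% of all genes did. Thin limb markers summed to 141 to 193, 192 to 261 and 263 to 324 FPKM in the same order. The largest, Aqp1, also a proximal tubule marker, averaged 78.8, 137 and 229 FPKM. Slc14a2, a marker that did not enter the test, stood at 0.02 to 0.10 FPKM in combination libraries. It was at 0.60, 0.14, 25.9 and 2.28 FPKM in cisplatin libraries 1 to 4 and at 0 to 0.38 FPKM in vehicle libraries. Cisplatin library 3, the highest for Slc14a2, was also the highest of its group for Cldn19 and Slc12a1. Of 5 tested thin limb markers 2 fell and 2 rose after cisplatin, where 21.8% and 56.3% of all genes did. The 2 that rose, Slc4a11 and Bst1, were at 0.31 to 0.54 and 0.41 to 0.53 FPKM in vehicle libraries. Both met the filter only through libraries given cisplatin, so the filter favoured a rise. What these cells contribute to the claudin values was not tested.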

How the data were processed

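Kidney RNA sequencing of 12 libraries was used as 3 groups of 4. The authors deposited FPKM per gene, rounded to 2 decimals, in columns named after the libraries, and estimated counts, per the file headers, for 10 libraries, of which 34.3% of values are not whole. Count columns with the third header prefix were taken as the combination group, since the other prefixes name cisplatin and control. A block of 14 per-sample columns with missing or displaced headings was not used. The submitters' processing notes list RSEM 1.2.12, Bowtie2 2.2.5 and HISAT2 2.0.4 without roles, and the sources used here give no build, annotation or strand setting.

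FPKM were tested as log2(FPKM + 1) with limma 3.58.1 in R 4.3.3 (3 group means, mean trend, two-sided, Benjamini-Hochberg over 12428 genes with at least 1 FPKM in at least 4 libraries). Fold changes on this scale understate changes of low genes. Ratios used exact permutation tests. Alternatives included edgeR 4.0.16 and DESeq2 1.42.0 on rounded estimated counts. The fits were checked on simulated data. Titles call the libraries biological replicates, and each p-value rests on how far these libraries differ. There were 0 identical pairs of FPKM columns, and chi-square per degree of freedom between same-group libraries with counts was at least 4.35. All 10 members are named, pathway genes by the 3 largest passing statistics plus the most abundant gene that did not pass (1 gene that this rule names is not reported here), other claudins from 1 FPKM, and fixed segment markers; Krt5, Upk1a, Upk2 and Upk3a were named after their values were seen. The members and lists were chosen with earlier results of these data known.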

Additional observations from a re-analysis of the deposited data

Results flagged for a closer look

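Of 30 gene and group combinations of 4 libraries, 2 held a library that stood apart from the other 3 by Dixon's criterion, a share that chance alone gives in about 1 of 20. Cldn16 stood at 5.58 FPKM in combination library 1, where the others were at 3.98 to 4.18 FPKM. Cldn14 stood at 0.15 FPKM in vehicle library 4, where the others were at 0.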

How the results depend on the processing

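The counts of claudins called after cisplatin (7) and in the combination over vehicle (8) stayed within 1.5 times under every alternative run, at 7 to 9 and 8 to 10; Cldn19, and with counts Cldn14, were gained after cisplatin in the 10 libraries. With each library left out in turn they were 7 and 8 to 9. In the combination over vehicle Cldn16 was gained as a fall with median-of-ratios scaling, quantile normalization and only the 2 groups compared. The same fall was gained in the 10 libraries with limma, edgeR and DESeq2, and without combination library 1 or cisplatin library 2. The combination over cisplatin was less stable: its 1 call became 0 with no filter, with median-of-ratios scaling, with quantile normalization and with only the 2 groups compared, where Cldn19 had adjusted p of 0.084, 0.05 after rounding, 0.0539 and 0.111. It became 3 with edgeR and 3 with DESeq2 on the estimated counts of 10 libraries, which added Cldn3 and Cldn16, and 2 with limma on their FPKM. With each library left out it was 0 to 1, and 1 remained only without combination library 1 or cisplatin library 2. The regulator list had 1 call for the combination over cisplatin with DESeq2, against 0 in limma and edgeR. The tight junction list had 0 with all 3.

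Signs turned in the following values, which had not passed in limma. For the combination over cisplatin, Cldn2 was 0.0059 with limma on 10 libraries, Cldn7 was -0.042 with edgeR, -0.0393 with DESeq2 and -0.0206 with limma on 10 libraries, and Cldn1 ran from -0.0176 to 0.138 as libraries were left out. After cisplatin, Cldn16 was -0.0036 with a pseudocount of 0.1, -0.25 with median-of-ratios scaling and -0.35 with quantile normalization, and ran from -0.10 to 0.18 as libraries were left out. Cldn19 was -0.0216 and -0.0805 with those 2 scalings. The Cldn4 to Cldn8 ratio of the combination over cisplatin ran from -0.0509 to 0.24 as libraries were left out. Causes were not tested.

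Median-of-ratios scaling turned 6999 rises and 2711 falls over all genes after cisplatin into 4618 and 4602, and left the 4 rises and 3 falls among claudins as they were. Same-numbered combination and cisplatin libraries had correlated deviations of 0.561, 0.249, 0.373 and -0.238, and for cisplatin and vehicle -0.076 to 0.079. The labels do not tie the numbers to anything shared, and not every pair was positive, so the samples were not treated as paired. With the replicate number as a block 7, 1 and 8 claudins passed in the 3 comparisons, as without it. Depth limits Cldn14, whose 3 vehicle counts set the width of its ratio.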
